A study of Homo sapiens with 6 samples.

Results

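The NF-kB subunits and inhibitors described here are 10 genes chosen by name from the deposited table: the 5 subunit genes NFKB1, NFKB2, REL, RELA and RELB, and the 5 inhibitor genes NFKBIA, NFKBIB, NFKBIE, TNFAIP3 and TNIP1. All 10 were found, among 58735 genes in the table, and all 10 had enough counts to be tested among 17947 genes. They were measured by RNA-seq in a line labelled CCRF-SB, a lymphoblast-like line from peripheral blood that stands for B cell acute lymphoblastic leukaemia. In the 3 siANXA1 libraries the cells had received a lentiviral vector that silences ANXA1, with the genotype label ANXA1 down-regulated. The 3 siControl libraries came from cells given an empty vector, with the genotype label WT. All cells were grown in RPMI-1640 medium with FBS, puromycin was used to select stable cells, and every library is labelled Day 5. The selected cells may be a pool or a clone; the labels do not say. Nor do they say that replicates were grown apart, and every p-value therefore reflects the spread among these libraries, which may be technical. By its title, the study asked how ANXA1 bears on growth and drug resistance.

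NF-kB is a family of dimeric transcription factors that switch on genes of inflammation, survival and lymphocyte growth. In resting cells the dimers are held in the cytoplasm by IkB proteins. An IkB kinase (IKK) complex, activated by receptors for tumour necrosis factor, interleukin 1, microbial ligands or antigen, marks IkB for destruction and so releases the dimers. Several of the inhibitors are themselves NF-kB target genes, which closes a negative feedback loop. B cells and B cell leukaemias are well known for their use of this pathway.

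Of the members, 7 have a promoter window in the RefSeq table (build GRCh38.p14; 300 bases, from 250 before to 50 after the annotated start) that holds a kB-type motif, GGG followed by any 2 bases and then TTTCC, on either strand. The members have 14 windows there, of which 8 hold the motif, while RELB and NFKBIE have no window. The motif was chosen after these windows had been read. It was searched on both strands and occurs in 1.91% of all 35116 promoter windows, and in a window of 2.33% of the 27305 genes that have one. A looser form that the motif overlaps, the kB consensus, occurs in 11.3% of all windows and in windows of 7 members. The stretches are shown because several of these genes are textbook targets of the factors they encode or restrain. Capitals mark the motif, read on the strand of the gene, so that GGAAA, any 2 bases and CCC is the motif on the opposite strand. A match describes these letters and is neither a binding site nor a cause.
NFKB1 (chr4:102501290-102501339, + strand): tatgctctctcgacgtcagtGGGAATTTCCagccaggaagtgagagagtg
NFKB2, upstream start of a pair (chr10:102394480-102394529, + strand): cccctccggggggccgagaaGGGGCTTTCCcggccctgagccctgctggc
NFKB2, downstream start of the pair (chr10:102395664-102395713, + strand): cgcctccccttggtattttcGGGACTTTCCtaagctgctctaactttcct
REL (chr2:60881508-60881557, + strand): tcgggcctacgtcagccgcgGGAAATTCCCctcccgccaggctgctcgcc
NFKBIA (chr14:35404801-35404850, - strand): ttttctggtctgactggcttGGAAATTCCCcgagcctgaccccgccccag
NFKBIB (chr19:38899921-38899970, + strand): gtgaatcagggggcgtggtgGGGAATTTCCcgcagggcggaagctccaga
TNFAIP3 (chr6:137867172-137867233, + strand): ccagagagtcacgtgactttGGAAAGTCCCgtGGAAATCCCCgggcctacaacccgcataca
TNIP1 (chr5:151081047-151081096, - strand): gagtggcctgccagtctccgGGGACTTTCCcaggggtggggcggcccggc

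The motif begins 49 bases before the annotated start in NFKB1, 78 and 21 bases before 2 of the starts of NFKB2, and 46 bases before that of REL. Among the inhibitors it begins 81 bases before the start of NFKBIA, 28 before that of NFKBIB and 42 before that of TNIP1. TNFAIP3 has 2 copies in tandem, at 67 and 55 bases before the start. The same 10 letters GGGACTTTCC stand at the downstream start of NFKB2 and in TNIP1, and GGGAATTTCC in NFKB1 and NFKBIB and, on the opposite strand as GGAAATTCCC, in REL and NFKBIA. RELA has 2 windows in the table and neither holds these letters. NFKB1, NFKB2, NFKBIB and TNIP1 each also have a window, at another start, that lacks the motif.

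ANXA1, the silenced gene, read 1606, 1723 and 1712 CPM in siANXA1 replicates 1 to 3, against 3696, 3696 and 3756 CPM in siControl replicates 1 to 3. CPM is the count relative to the library total, corrected for library composition by TMM. The log2 fold change of -1.14 ± 0.093 (SE) missed the threshold in edgeR's quasi-likelihood test (adjusted p = 0.0571) and passed DESeq2 (adjusted p = 1.41e-17). Counts assigned to genes were fewest in siANXA1 replicate 2 (21333951) and most in siANXA1 replicate 1 (44148505). Marker genes of the B lineage went against the label: of 14, VPREB1, IGHM and IGLL1 were at 0 in all libraries, and the list summed to between 37.0 and 104 CPM in siANXA1 and 41.3 and 85.6 CPM in siControl, most of it CD24. All 14 erythroid and megakaryocyte markers were above 1 CPM on average, GATA1 among them, and their sum was higher in siANXA1 (6101 to 7152 CPM) than in siControl (2256 to 3700 CPM). Much of that gap was in HBE1, an embryonic globin gene, at 3235, 2196 and 2939 CPM in siANXA1 replicates 1 to 3 and 4.83, 646 and 9.44 CPM in siControl replicates 1 to 3. The list did not move as one: GATA1 and TFRC overlapped between groups, and ITGA2B read 5.03, 7.83 and 3.94 CPM in siANXA1 and 15.4, 15.97 and 6.16 CPM in siControl. HBE1, TFRC and ITGA2B were singled out after their values were seen. T lineage markers summed to between 15.2 and 26.4 CPM in siANXA1 and 10.99 and 39.2 CPM in siControl, and myeloid markers to between 38.8 and 41.2 CPM in siANXA1 and 35.4 and 53.1 CPM in siControl. Stromal and epithelial markers summed to between 469 and 651 CPM in siANXA1 and 481 and 510 CPM in siControl. Seen afterwards, most of the T lineage sum was CD3D and most of the myeloid sum LYZ. Most of the stromal and epithelial sum was KRT8, KRT18 and EPCAM, while COL1A1 read at most 3.42 CPM (siANXA1 replicate 2). These marker sums carry no TMM scaling, and their part in the results below was not tested. In bulk libraries, fewer cells of a type and less RNA per cell cannot be told apart. The first principal component of all tested genes other than the members, with 39.9% of the variance, placed siANXA1 replicate 2 with siControl replicates 1 and 2, and siANXA1 replicates 1 and 3 with siControl replicate 3.

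Of the members, 0 passed edgeR's quasi-likelihood test in siANXA1 against siControl at an adjusted p under 0.05, where 0.0111% of all tested genes did. None reached an unadjusted p under 0.05 either, where 7.93% of all tested genes did, and DESeq2 called 0 of the 10, where it called 1.67% of all genes with an adjusted p (0.77% higher and 0.9% lower in siANXA1). The log2 fold change was negative in 7 members and positive in 3, its median being -0.20, against 0.01 over all tested genes. Of all tested genes, 49.5% had a negative log2 fold change. In 1 member, NFKBIA, the groups did not overlap, with siANXA1 lower; that was so in 7.24% of all tested genes, and the opposite, with siANXA1 higher, in 7.41%. The 95% intervals were narrowest for RELA (-0.33 to 0.59), NFKBIA (-0.59 to 0.27) and NFKBIE (-0.71 to 0.28), and those of NFKB2, RELB, REL, TNFAIP3 and TNIP1 extended beyond 1 log2 unit on 1 side.

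**Figure D1:**
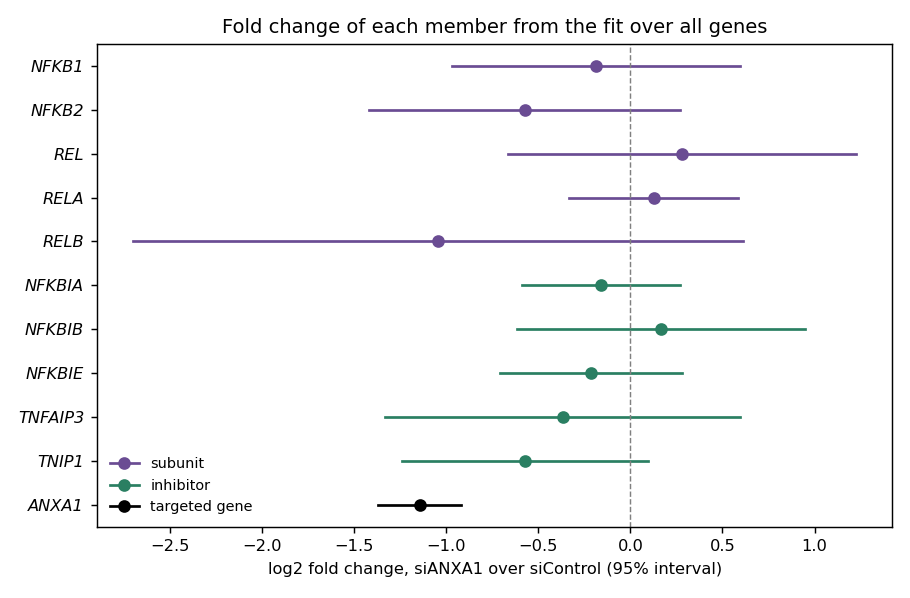
Log2 fold change of each member and of the targeted gene ANXA1, siANXA1 over siControl, with its 95% interval from the edgeR fit over all genes. The intervals of all 10 members include 0, from RELB at -1.04 to REL at 0.28, while that of ANXA1 lies between -1.37 and -0.92.

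RELA, the p65 subunit that carries the main activation domain of the classical dimer, had the highest level of the 10 genes per length. That level counts coding and non-coding transcripts together. The RELA locus is chr11:65653596-65663094 on the minus strand (GRCh38, as for all genes here). It read 70.4, 63.2 and 74.4 CPM in siANXA1 replicates 1 to 3, against 56.2, 55.95 and 78.5 CPM in siControl replicates 1 to 3. The lowest 2 values were siControl replicates 1 and 2 and the highest was siControl replicate 3, so the siANXA1 values lay inside the siControl range. The log2 fold change was 0.13 ± 0.19 (SE), with an edgeR adjusted p of 0.848 and a 95% interval of -0.33 to 0.59. The highest library was 1.40 times the lowest.

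NFKB1, which encodes p105 and its processed product p50, the usual partner of RELA, is at chr4:102501329-102617302 (plus strand). It read 41.4, 21.2 and 39.2 CPM in siANXA1 replicates 1 to 3, against 31.7, 33.6 and 50.8 CPM in siControl replicates 1 to 3. The lowest value was that of siANXA1 replicate 2, the highest that of siControl replicate 3, and the groups overlapped. The log2 fold change was -0.19 ± 0.33 (SE), with an edgeR adjusted p of 0.870. The sign turned without siANXA1 replicate 2 (0.06) or without siControl replicate 3 (0.05). Its counts were nearly all in coding transcripts (99.4% to 99.9% per library), with ENST00000394820 holding 83.8% to 88.9%.

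NFKB2 encodes p100, which acts as an IkB-like inhibitor until it is cut to p52 in the non-canonical pathway. The gene is at chr10:102394110-102402529 (plus strand). It read 14.03, 24.3 and 14.3 CPM in siANXA1 replicates 1 to 3, against 35.9, 24.3 and 18.0 CPM in siControl replicates 1 to 3. The highest siANXA1 value was equal to the middle siControl value to within 0.1 CPM, so the groups overlapped. The log2 fold change was -0.57 ± 0.35 (SE), with an edgeR adjusted p of 0.686, and its values with 1 library left out ran between -0.87 (without siANXA1 replicate 2) and -0.28 (without siControl replicate 1). Fitted with the library's side of the principal component above as a covariate it was -0.33 (edgeR adjusted p = 0.491).

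RELB, the partner of p52 in the non-canonical pathway, was barely expressed. The gene is at chr19:45001430-45038198 (plus strand) and held 13, 6 and 36 counts in siANXA1 replicates 1 to 3, against 69, 45 and 16 in siControl replicates 1 to 3. In CPM these were 0.299, 0.274 and 0.983 in siANXA1 and 1.65, 1.12 and 0.479 in siControl. The groups overlapped, the highest library was 6.03 times the lowest, and the log2 fold change of -1.04 ± 0.69 (SE) had a 95% interval of -2.70 to 0.61 (edgeR adjusted p = 0.703).

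REL encodes c-Rel, the subunit most tied to lymphocytes, and is at chr2:60881521-60931610 (plus strand). It read 30.0, 25.3 and 55.0 CPM in siANXA1 replicates 1 to 3, against 43.0, 21.6 and 26.1 CPM in siControl replicates 1 to 3. The 2 high libraries, siANXA1 replicate 3 and siControl replicate 1, came from different groups, and the log2 fold change was 0.28 ± 0.39 (SE), with an edgeR adjusted p of 0.835. Without siANXA1 replicate 3 the log2 fold change was -0.13. An overlapping non-coding gene on the same strand, AC010733.2, shares 43.3% of the exon bases of REL, so estimated counts of both can be exchanged. That gene, looked up after the values of REL were seen, read 33.1, 22.5 and 7.02 CPM in siANXA1 replicates 1 to 3, against 8.18, 29.4 and 31.3 CPM in siControl replicates 1 to 3. It was lowest in the 2 libraries in which REL was highest, and its part in the spread of REL was not tested. Summed, both genes read 63.1, 47.7 and 61.97 CPM in siANXA1 and 51.2, 51.0 and 57.4 CPM in siControl, a highest value 1.32 times the lowest, where REL alone gave 2.55 times.

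**Figure D2:**
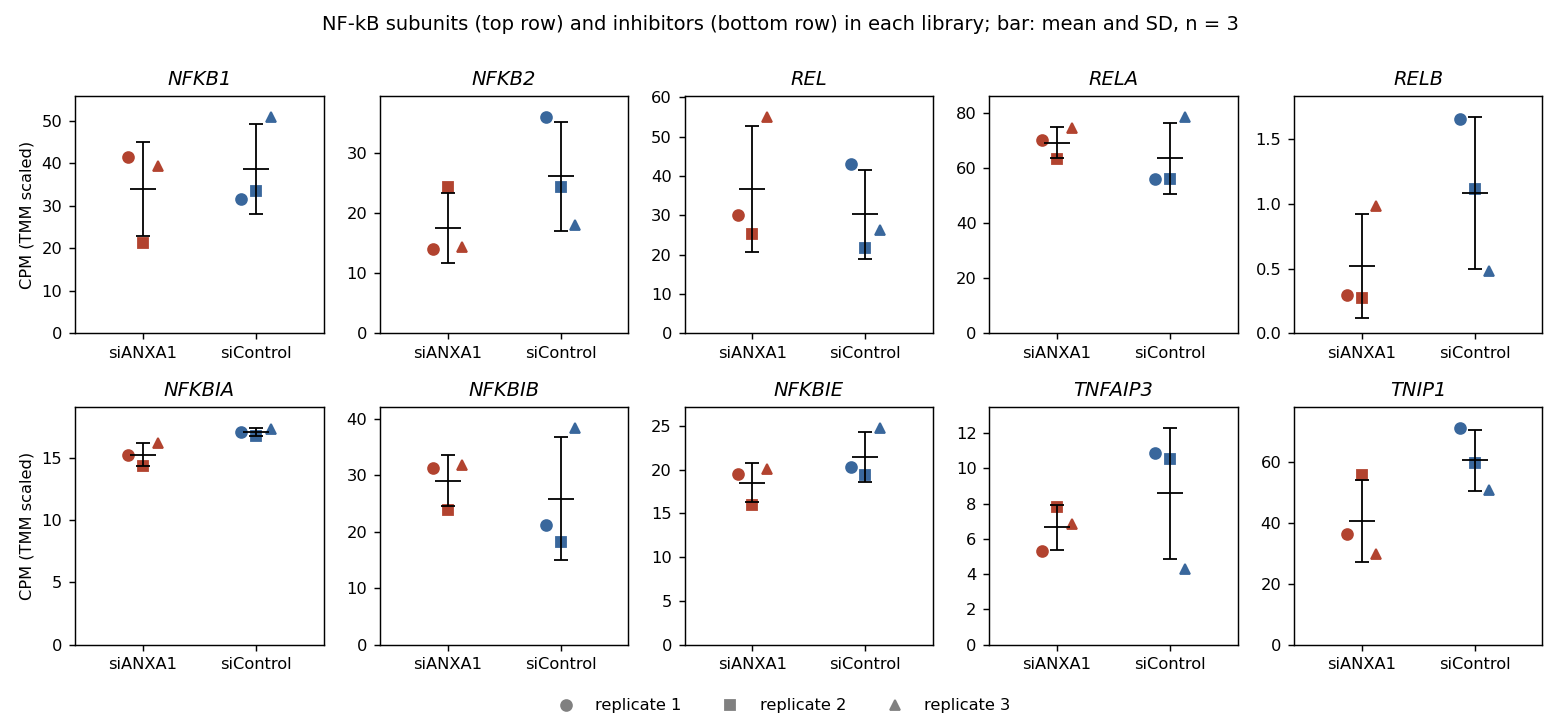
Level of each subunit (top row) and inhibitor (bottom row) in CPM scaled by TMM, with siANXA1 at the left and siControl at the right of each panel; symbols are replicates and bars the mean and SD of 3 libraries. The siANXA1 and siControl values overlap in every panel but that of NFKBIA, and RELB stays under 2 CPM.

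NFKBIA encodes IkB-alpha, the fast-acting inhibitor that NF-kB induces within the feedback loop, and is at chr14:35401511-35404749 (minus strand). It was the steadiest of the 10 genes, at 15.3, 14.3 and 16.2 CPM in siANXA1 replicates 1 to 3, against 17.1, 16.7 and 17.4 CPM in siControl replicates 1 to 3. All siANXA1 values lay below all siControl values, by a small margin. The means were 15.3 ± 0.951 CPM in siANXA1 and 17.1 ± 0.315 CPM in siControl (SD, n = 3 each), with a log2 fold change of -0.16 ± 0.18 (SE), an edgeR adjusted p of 0.803 and a 95% interval of -0.59 to 0.27. Its direction was negative under all 17 alternative settings, between -1.29 with the most abundant transcript alone and -0.11 without siANXA1 replicate 2.

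NFKBIB encodes IkB-beta, a slower inhibitor of the same dimers, and is at chr19:38899700-38908893 (plus strand). It read 31.3, 23.8 and 31.9 CPM in siANXA1 replicates 1 to 3, against 21.2, 18.2 and 38.3 CPM in siControl replicates 1 to 3. The siANXA1 values lay within the siControl range, and the log2 fold change was 0.17 ± 0.32 (SE), with an edgeR adjusted p of 0.884. NFKBIE, which encodes IkB-epsilon, is at chr6:44258166-44265788 (minus strand). It read 19.5, 15.9 and 20.1 CPM in siANXA1 replicates 1 to 3, against 20.3, 19.4 and 24.7 CPM in siControl replicates 1 to 3. The groups overlapped narrowly, and the log2 fold change was -0.21 ± 0.21 (SE), with an edgeR adjusted p of 0.785.

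TNFAIP3 encodes A20, a ubiquitin-editing enzyme that shuts off signalling above the IKK complex, and is at chr6:137867188-137883312 (plus strand). It read 5.29, 7.81 and 6.85 CPM in siANXA1 replicates 1 to 3, against 10.9, 10.5 and 4.31 CPM in siControl replicates 1 to 3. The siControl libraries held both the 2 highest values and the lowest one, so the groups overlapped, and the log2 fold change was -0.37 ± 0.40 (SE), with an edgeR adjusted p of 0.800. Fitted with the component's side as a covariate, the log2 fold change was 0.02 (edgeR adjusted p = 0.984). The antisense gene AL357060.1 shares 1.88% of its exon bases; without a stated strand setting, reads of that stretch cannot be told apart.

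TNIP1 encodes ABIN1, a ubiquitin-binding partner of A20, and is at chr5:151029945-151093577 (minus strand). It had the smallest p of the 10 members. It read 36.5, 55.8 and 29.8 CPM in siANXA1 replicates 1 to 3, against 71.0, 59.7 and 50.7 CPM in siControl replicates 1 to 3. Only siANXA1 replicate 2 reached into the siControl range. The means were 40.7 ± 13.5 CPM in siANXA1 and 60.5 ± 10.2 CPM in siControl (SD, n = 3 each), a log2 fold change of -0.57 ± 0.28 (SE) with a 95% interval of -1.24 to 0.09, which did not pass edgeR (unadjusted p = 0.0808, adjusted p = 0.644). The direction was negative under all 17 alternative settings, between -1.23 with the most abundant transcript alone and -0.39 without siANXA1 replicate 3; without siANXA1 replicate 2 it was -0.86.

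Levels between genes were set side by side per length, as transcript counts per kilobase, scaled to the same sum in each library. Over all libraries RELA averaged 54.7, TNIP1 37.3, NFKBIB 30.3, NFKBIA 22.04, NFKB1 18.3, NFKB2 17.1, NFKBIE 14.2, REL 7.82, TNFAIP3 4.37 and RELB 0.793 on this scale. Neighbours in this order overlapped in range, except TNFAIP3 (2.06 to 6.51) and RELB (0.218 to 1.61). RELA exceeded TNIP1 in 5 of 6 libraries, and TNIP1 exceeded NFKBIB in 3 of 6. The 5 subunits summed to 98.7, 85.4 and 113 in siANXA1 replicates 1 to 3, against 103, 82.8 and 110 in siControl replicates 1 to 3. The 5 inhibitors summed to 103, 105 and 96.4 in siANXA1 and 114, 110 and 121 in siControl on the same scale. The inhibitor sum was thus lower in each siANXA1 library than in any siControl library, while the subunit sums overlapped. The sum of the 3 IkB genes among the inhibitors, NFKBIA, NFKBIB and NFKBIE, overlapped too. It read 70.5, 57.88 and 69.8 in siANXA1 and 60.7, 57.91 and 82.2 in siControl. The separation appeared once TNIP1 was added to this sum, with or without TNFAIP3, and did not appear with TNFAIP3 alone added. TNIP1 differed most among the inhibitors on this scale, at 31.2 ± 9.68 in siANXA1 and 43.4 ± 5.86 in siControl (SD, n = 3 each), and without a test of the sum this is a description. NFKBIB went the other way, at 32.0 ± 3.42 in siANXA1 and 28.6 ± 10.1 in siControl. In CPM, 7.24% of all tested genes taken singly were lower in siANXA1 without overlap, and no such share was computed for sums. RELA made up 54.3% to 61.5% of the subunit sum in siANXA1 and 47.5% to 59.5% in siControl. All these levels count transcripts of every class. Coding transcripts held between 24.5% and 96.6% of the RELA counts per library, so its rank and share are not those of coding RNA.

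Seen library by library, some members fell into opposite patterns that cut across the groups, while REL, RELB, NFKBIA and NFKBIE followed neither. NFKB2, TNFAIP3 and TNIP1 were each higher in siANXA1 replicate 2 and siControl replicates 1 and 2 than in any other library. NFKB1, RELA and NFKBIB were each lower in siANXA1 replicate 2 and siControl replicates 1 and 2 than in any other library. Together 6 of 10 members divided the libraries in this way, where 39.8% of all tested genes did (19.7% with these 3 libraries higher and 20.1% with them lower). The division is that of the first principal component, which was computed without the members but from the same libraries, so it is a description and not a test. As deviations from each gene's own mean log2 CPM, NFKB2 stood at 0.24 in siANXA1 replicate 2 and 0.80 and 0.24 in siControl replicates 1 and 2, and between -0.55 and -0.19 in the others. By the same measure NFKBIB stood at -0.16 in siANXA1 replicate 2 and -0.33 and -0.55 in siControl replicates 1 and 2, and between 0.24 and 0.53 in the others.

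**Figure D3:**
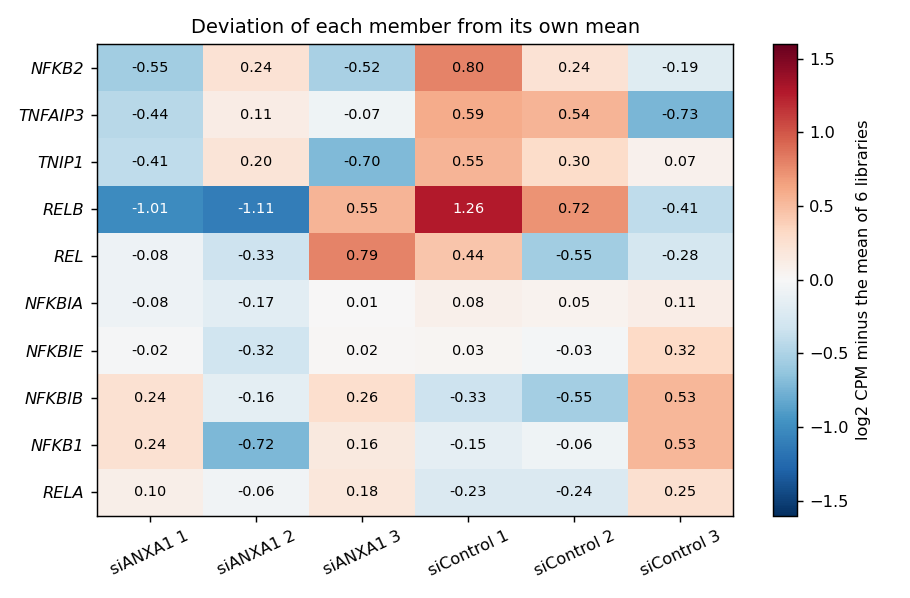
Deviation of each member from its own mean over 6 libraries, in log2 CPM, with the siANXA1 libraries at the left; red is higher and blue lower. NFKB2, TNFAIP3 and TNIP1 at the top are higher in siANXA1 replicate 2 and siControl replicates 1 and 2, NFKBIB, NFKB1 and RELA at the bottom are lower there, and NFKBIA stays within 0.17 of its mean.

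The table listed 110 transcripts of the members, of which 87 had a count and 43 passed the filter on low counts. Of these 43, 4 (9.30%) were higher in every siANXA1 library than in any siControl library, and 2 (4.65%) were lower; the background over 58702 transcripts was 7.34% and 5.23%. Single transcripts are uncertain here, since 26 of the 43 had fewer than 100 exon bases that no other transcript of their gene holds, and 18 had none. NFKBIE shows the limit: its transcripts ENST00000275015 and ENST00000619360 are identical in sequence over 2581 bases, so reads cannot be told apart between them.

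Of these 6, the one with the highest level was in NFKBIB, where ENST00000509705, annotated as a target of nonsense-mediated decay, read 12.7, 7.63 and 11.5 CPM in siANXA1 replicates 1 to 3, against 5.27, 4.04 and 5.87 CPM in siControl replicates 1 to 3. It held 40.6%, 32.1% and 36.0% of the gene's counts in siANXA1, against 24.9%, 22.2% and 15.3% in siControl, without overlap. It has 194 exon bases of its own, most of them in a run at chr19:38908539-38908730. The coding transcripts of NFKBIB therefore held a smaller share in siANXA1 (59.4% to 67.9%) than in siControl (75.1% to 84.7%), and the fold change of the gene summed over coding transcripts alone was -0.17 on the log2 scale.

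REL had a further one in the shorter coding transcript ENST00000394479, which read 5.68, 5.75 and 5.46 CPM in siANXA1 replicates 1 to 3, against 2.73, 0.843 and 2.93 CPM in siControl replicates 1 to 3. It has no exon base of its own. A decay-class transcript of REL, ENST00000642725, and a retained intron transcript of NFKBIA, ENST00000555371, were also higher in siANXA1 without overlap, both under 1 CPM in every library. Lower without overlap were ENST00000237289 of TNFAIP3 and ENST00000523338 of TNIP1, both listed at 0 in siANXA1 replicates 2 and 3, with at most 1 exon base of their own.

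RELA was steady as a gene and unsteady in its transcripts. ENST00000531484, annotated as a retained intron transcript, held 34.7%, 0.217% and 59.4% of the RELA counts in siANXA1 replicates 1 to 3, against 62.4%, 6.21% and 69.9% in siControl replicates 1 to 3. The coding transcript ENST00000406246 held 84.3% in siANXA1 replicate 2 and 70.3% in siControl replicate 2, and 2.12% or less in each of the others. A further coding transcript, ENST00000308639, had 1247 counts in siANXA1 replicate 1 and 0 in the other 5 libraries. Of their exon bases, 0 in ENST00000531484 and 5 in ENST00000406246 were in no other transcript of the gene. The fold change of RELA from its most abundant transcript alone was -0.44 on the log2 scale, against 0.13 for the sum. NFKBIA also differed between libraries in this way, with ENST00000557389 at 65.2%, 11.1% and 9.08% in siANXA1 replicates 1 to 3, against 59.9%, 57.5% and 69.0% in siControl, and ENST00000216797 taking up most of the rest in siANXA1 replicates 2 and 3 (82.5% and 78.8%).

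**Figure D4:**
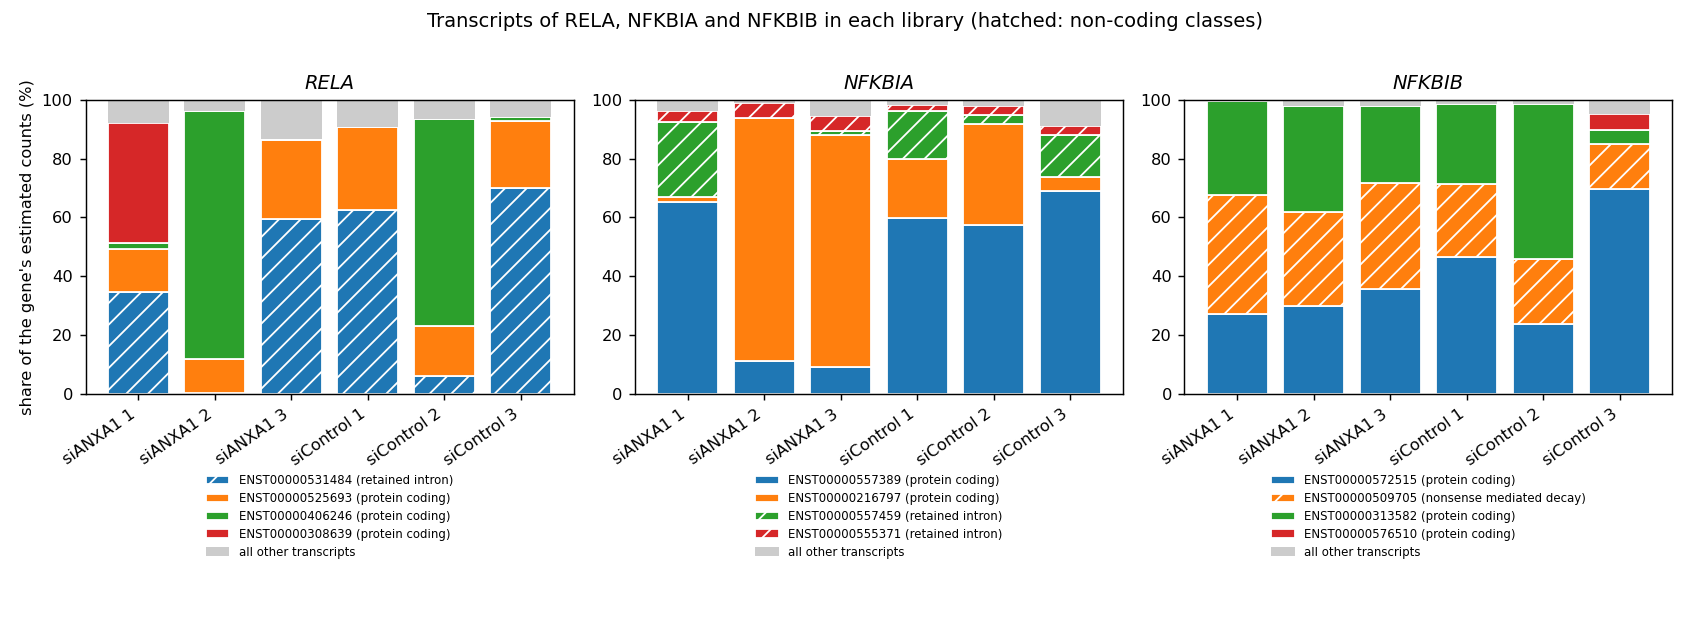
Share of estimated counts held by the 4 most abundant transcripts of RELA, NFKBIA and NFKBIB, in percent of the gene, with the siANXA1 libraries at the left of each panel; hatched parts are retained intron or nonsense-mediated decay classes. The leading transcript of RELA differs between libraries, while the decay-class transcript of NFKBIB holds 32.1% to 40.6% in siANXA1 and 15.3% to 24.9% in siControl.

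The rest of the pathway was read from 8 lists of 162 distinct genes by role, of which 121 were tested. These lists were chosen with earlier results of the data known. None passed edgeR at an adjusted p under 0.05 and DESeq2 called 0 of them. At an unadjusted p under 0.05 in edgeR, 4 (3.31%) were higher and 9 (7.44%) lower in siANXA1, against 3.40% and 4.52% of all tested genes. The median log2 fold change over the 121 was -0.04. Levels below are CPM as mean ± SD over 3 libraries, and none of the differences given passed the threshold. In each list the 3 tested genes with the highest level per length are named. Other genes, those with an unadjusted p under 0.05, were named after their values were seen. A gene among the 3 could also have an unadjusted p under 0.05, as RPS3 did. Where only a mean and SD are given, the groups may or may not overlap.

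Among 6 ligands that were tested, IL18, an interleukin 1 family cytokine, read 19.3 ± 8.31 CPM in siANXA1 and 18.2 ± 2.19 CPM in siControl. TNFSF13B, the B cell survival factor BAFF, read 14.2 ± 7.996 CPM in siANXA1 and 12.7 ± 7.16 CPM in siControl. IL1A, which encodes interleukin 1 alpha, stood at 1.89 ± 1.93 CPM in siANXA1 and 3.20 ± 2.34 CPM in siControl. Of the 16 ligands listed, 4 had no count in any library, and the median log2 fold change of the tested ones was -0.50.

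Of 24 receptors, 13 were tested and 5 had no count. The death receptor gene TNFRSF10B read 43.4, 130 and 44.3 CPM in siANXA1 replicates 1 to 3, against 258, 254 and 51.6 CPM in siControl replicates 1 to 3. It was high in siANXA1 replicate 2 and siControl replicates 1 and 2, the same division as above, and its log2 fold change of -1.37 had an edgeR adjusted p of 0.653. TNFRSF1B, a tumour necrosis factor receptor, read 95.1 ± 4.84 CPM in siANXA1 and 101 ± 29.8 CPM in siControl, and LTBR, the lymphotoxin beta receptor, 38.0 ± 1.68 CPM in siANXA1 and 39.8 ± 8.34 CPM in siControl. TNFRSF1A, the main tumour necrosis factor receptor, read 35.7, 38.8 and 43.8 CPM in siANXA1, against 30.2, 23.8 and 26.5 CPM in siControl, without overlap (log2 fold change 0.55, edgeR adjusted p = 0.607).

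Signalling adaptors and ubiquitin ligases were evenly divided, with 14 of 28 tested genes positive and a median log2 fold change of 0.00. SKP1, a component of the ligase that destroys IkB, read 217 ± 12.9 CPM in siANXA1 and 215 ± 18.7 CPM in siControl. IRAK1, a kinase below interleukin 1 receptors, read 393 ± 62.6 CPM in siANXA1 and 304 ± 88.6 CPM in siControl, and UBE2V1, a ubiquitin-conjugating cofactor, 137 ± 16.9 CPM in siANXA1 and 130 ± 1.49 CPM in siControl. RBCK1, a subunit of the linear ubiquitin ligase, read 24.4, 21.5 and 16.2 CPM in siANXA1, against 60.1, 45.8 and 25.9 CPM in siControl, without overlap (log2 fold change -1.09, edgeR adjusted p = 0.605).

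No kinase passed the test. Of 9 upstream kinases and TAB adaptors, NLK read 74.1 ± 11.8 CPM in siANXA1 and 89.0 ± 10.8 CPM in siControl, MAP3K7, the kinase TAK1, 87.8 ± 31.1 CPM in siANXA1 and 91.8 ± 21.5 CPM in siControl, and its adaptor TAB2 45.2 ± 1.94 CPM in siANXA1 and 59.2 ± 7.97 CPM in siControl. TAB2 was lower in siANXA1 without overlap (edgeR adjusted p = 0.631). Of 8 genes of the IKK group, TBK1, an IKK-related kinase, read 85.6 ± 12.9 CPM in siANXA1 and 81.8 ± 16.0 CPM in siControl, its adaptor TANK 25.4 ± 2.12 CPM in siANXA1 and 28.7 ± 5.17 CPM in siControl, and IKBKB, the kinase IKK-beta, 59.7 ± 6.41 CPM in siANXA1 and 61.2 ± 2.88 CPM in siControl. IKBKG, the scaffold NEMO, read 11.4, 8.08 and 3.11 CPM in siANXA1, against 15.8, 22.6 and 15.6 CPM in siControl, without overlap (log2 fold change -1.26, edgeR adjusted p = 0.627). A near-identical pseudogene copy of IKBKG can share its reads.

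Of 14 tested deubiquitinases and other brakes, 11 were positive and 3 negative in log2 fold change, and the median was 0.12. Of all tested genes, 49.5% were negative. TAX1BP1, an A20 adaptor, read 171 ± 22.7 CPM in siANXA1 and 199 ± 56.1 CPM in siControl, TRAFD1, a brake on Toll-like receptor signalling, 125 ± 5.53 CPM in siANXA1 and 94.6 ± 32.97 CPM in siControl, and RNF11, another part of the A20 complex, 50.9 ± 19.7 CPM in siANXA1 and 72.8 ± 6.47 CPM in siControl. RNF11 was lower in siANXA1 without overlap (edgeR adjusted p = 0.686). OTULIN, which removes linear ubiquitin chains, read 126, 101 and 123 CPM in siANXA1, against 58.9, 63.5 and 101 CPM in siControl, and its lowest siANXA1 value exceeded the highest siControl value by less than 1 CPM (log2 fold change 0.65, edgeR adjusted p = 0.627).

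Atypical IkB proteins and nuclear partners had 9 of 16 positive and a median log2 fold change of 0.02. RPS3, a ribosomal protein that also binds RELA and has pseudogene copies, read 1239 ± 262 CPM in siANXA1 and 829 ± 101 CPM in siControl, the deacetylase HDAC1 334 ± 41.7 CPM in siANXA1 and 315 ± 38.3 CPM in siControl, and HDAC3, a deacetylase of RELA, 162 ± 41.1 CPM in siANXA1 and 116 ± 6.34 CPM in siControl. RPS3 and HDAC3 were higher in siANXA1 without overlap. For RPS3 the log2 fold change was 0.58 (edgeR unadjusted p = 0.0183, adjusted p = 0.605). BCL3, an atypical IkB protein that binds p50 and p52, read 1.22, 1.55 and 1.15 CPM in siANXA1, against 6.37, 4.64 and 1.44 CPM in siControl (log2 fold change -1.67, edgeR adjusted p = 0.607). Its siControl replicate 3 lay inside the siANXA1 range. SIRT1, a deacetylase of RELA, read 57.1, 55.8 and 60.1 CPM in siANXA1, against 74.9, 80.0 and 75.5 CPM in siControl, without overlap (log2 fold change -0.41, edgeR adjusted p = 0.607), and NKIRAS2, a Ras-like inhibitor, 51.1 ± 14.04 CPM in siANXA1 and 84.0 ± 21.7 CPM in siControl.

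Of 31 tested further NF-kB target genes, 22 were negative, against 49.5% of all tested genes. Their median log2 fold change was -0.49, and 17 of the 48 listed had too few counts. At an unadjusted p under 0.05, 5 were lower (16.1%) and 1 higher (3.23%) in siANXA1, against 4.52% and 3.40% of all tested genes. VEGFA, a vascular growth factor, read 166 ± 72.1 CPM in siANXA1 and 258 ± 133 CPM in siControl, SQSTM1, the autophagy adaptor p62, 177 ± 26.9 CPM in siANXA1 and 183 ± 28.6 CPM in siControl, and JUNB, an AP-1 transcription factor, 60.2 ± 4.63 CPM in siANXA1 and 80.2 ± 7.87 CPM in siControl. ICAM1, an adhesion molecule, read 32.9, 41.3 and 28.7 CPM in siANXA1, against 77.8, 70.9 and 42.2 CPM in siControl, without overlap (log2 fold change -0.89, edgeR adjusted p = 0.605). SOD2, the mitochondrial superoxide dismutase, stood the other way, at 46.3, 63.7 and 65.7 CPM in siANXA1, against 39.8, 23.96 and 29.9 CPM in siControl, without overlap (log2 fold change 0.91, edgeR adjusted p = 0.605). IRF1, an interferon regulatory factor, read 6.58 ± 1.49 CPM in siANXA1 and 11.6 ± 3.55 CPM in siControl, and PTX3, a pentraxin of innate immunity, 1.58 ± 0.419 CPM in siANXA1 and 3.14 ± 0.247 CPM in siControl. The division by library was uneven in this list. In 15 of 31 (48.4%), siANXA1 replicate 2 and siControl replicates 1 and 2 stood above every other library, against 19.7% of all tested genes. In 3 (9.68%) these libraries stood below every other library, against 20.1% of all tested genes.

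**Figure D5:**
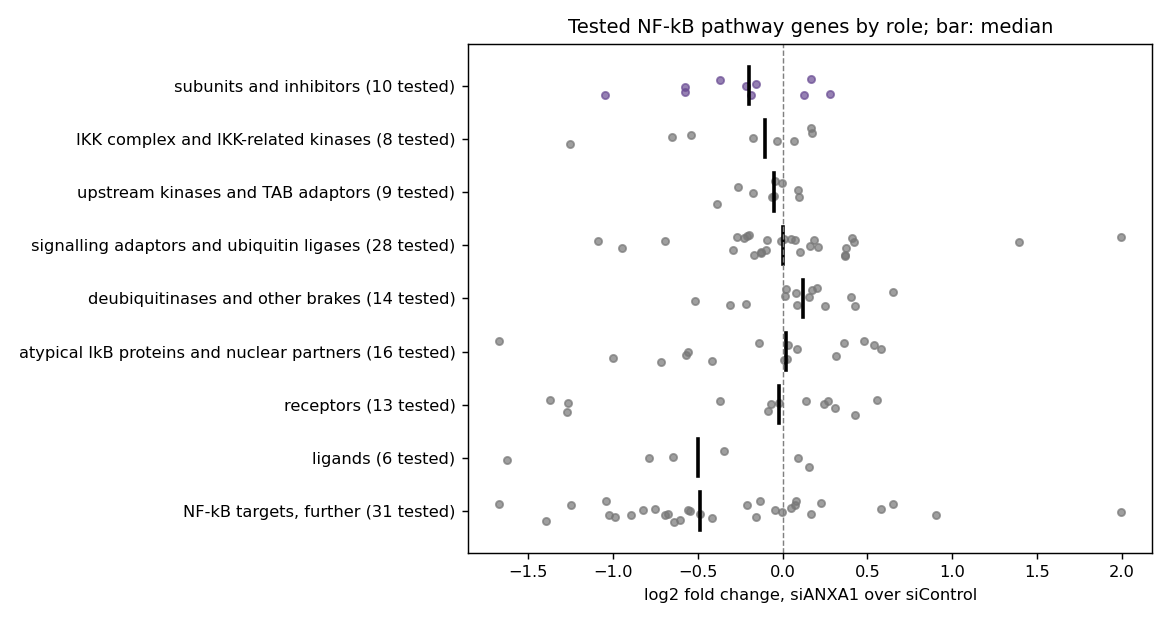
Log2 fold change of every tested gene by role, siANXA1 over siControl; each point is a gene, black bars are medians, and genes may stand in more than 1 list. Medians run from -0.50 for ligands and -0.49 for further targets to 0.12 for deubiquitinases and other brakes, and no point passed the edgeR threshold.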

How the data were processed

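Per transcript, the authors deposited estimated counts as whole numbers without normalization, in an annotated and a plain table that agreed in all 1335690 values; the unit was inferred from the values. Aligner, counting tool and strand setting are details not given in the sources used here. By contrast, the submitters' processing notes name mm10, a mouse build, whereas the deposited coordinates are human and were read as GRCh38 against GENCODE 29. Per the labels, total RNA went into an Illumina TruSeq kit. The 16014 rows without a gene held 16.9% to 17.7% of each library and entered no library size or test. Deposited transcript lengths served only for levels per kilobase.

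Counts were summed per gene. The test was edgeR 4.0.16 under R 4.3.3 (filterByExpr, TMM, robust glmQLFit, glmQLFTest, two-sided), on group alone, with Benjamini-Hochberg adjusted p-values over 17947 genes and a threshold of 0.05. SE is the log2 fold change divided by the square root of F. Alternatives were 3 scalings, DESeq2 1.42.0, limma-voom (limma 3.58.1), 2 filters, 2 ways of summing transcripts, the replicate number as a block, the principal component side as a covariate, and each library left out. Simulated counts served to check how well the fit finds known differences. With a log2 difference of 1 put in, only 2 genes out of 67 were found. A log2 difference of 2 was found in 21 genes out of 67, and a log2 difference of 3 in 45 out of 66. False calls numbered 3. A lack of calls among members or listed genes therefore does not show that moderate differences were absent. Members, lists and tests were chosen with earlier results of these data known. Named genes were the 10 members, ANXA1 and, per list, the 3 tested genes of highest level per kilobase plus any past the threshold, of which there were 0; genes outside this rule, most with an unadjusted p under 0.05, were named after their values were seen. Promoters came from RefSeq, where 8 of the 10 members matched by symbol. Figures were drawn with matplotlib 3.10.9.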

Additional observations from a re-analysis of the deposited data

How the results depend on the processing

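Over 46 genes and 778 combinations of gene and alternative, the log2 fold change kept its direction and its side of the threshold in 734. The direction turned in 39. The rest were ANXA1, which passed the threshold in 5 of its 17 alternatives, without a change of direction. No member passed under any alternative in these combinations. The number of genes called was 2; it was 258 with DESeq2, 5 with the principal component side as a covariate, 1 with the most abundant transcript per gene and 0 with protein coding transcripts only. With 1 library left out it ran between 0 and 7, the 7 without siControl replicate 3 and the 0 without any siANXA1 replicate or without siControl replicate 2. With the replicate block it was 0. Same-numbered libraries had correlations of -0.11, 0.26 and 0.26 in their deviations, for replicates 1 to 3. The same-numbered siControl library was the closest to siANXA1 replicates 2 and 3, while siANXA1 replicate 1 was closest to siControl replicate 3 (0.21). For siANXA1 replicate 2, siControl replicate 1 was nearly as close (0.23). These values do not settle whether the numbers pair the libraries.

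Directions turned as follows, in log2 fold change; the cause was not tested. With the most abundant transcript RELA was -0.44 and NFKBIB -0.59. With protein coding transcripts NFKBIB was -0.17, IKBKB 0.035 and VEGFA 0.36. With the component side, NFKBIB was -0.0024, TNFAIP3 0.017, TBK1 -0.068, SKP1 -0.018, HDAC1 -0.019, IL18 -0.16 and IL1A 0.19. SKP1 was -0.047 with upper quartile scaling, -0.011 with no filter and -0.020 with the strict filter, and IL18 -0.0043 with the replicate block. With 1 library left out, values ran between -0.35 and 0.063 for NFKB1, -0.13 and 0.62 for REL, -0.042 and 0.56 for NFKBIB, -0.064 and 0.22 for TBK1, -0.094 and 0.054 for IKBKB, -0.39 and 0.11 for MAP3K7, -0.063 and 0.066 for SKP1, -0.031 and 0.13 for UBE2V1, -0.25 and 0.17 for TNFRSF1B, -0.20 and 0.11 for LTBR, -0.19 and 0.40 for IL18, -0.25 and 0.56 for TNFSF13B, and -0.15 and 0.080 for SQSTM1. RELB had the fewest counts of the members, 6 to 69 a library, and the widest 95% interval.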
